A study of Drosophila melanogaster with 6 samples.

Results

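The genes dpr1, dpr2, dpr3, dpr4, dpr5 and dpr7 were described in L3 neurons, a neuron type of the fly lamina, from WT and dFezf1 samples. They are the paralogues of the defective proboscis extension response (dpr) family whose proteins bind the DIP-eta, DIP-theta and DIP-iota receptors. They were chosen by gene symbol, as 6 of the 13727 genes of the deposited comparison. Of these, 5 carry the same symbol there, and dpr1 is listed under its older symbol dpr and was matched by its identifier. All 6 are described, and 5 of them had an adjusted p, since dpr5 had a normalized count of 0.

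The series compared RNA of fluorescently labelled L3 neurons, sorted from Drosophila melanogaster optic lobes at 24 h after puparium formation (APF). The WT group has 3 samples whose titles name the FRT40 chromosome, a chromosome with a recombination site used to make mosaic animals. The dFezf1 group has 3 samples with the dFezf1 allele of the transcription factor gene dFezf, also called earmuff (erm). How mutant cells were produced and marked, and how many animals went into a sample, was not stated in the labels read here. The title dates run from 28 to 30 November for WT and from 12 to 14 December for dFezf1, so title date and genotype cannot be told apart.

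Dpr proteins are cell surface proteins with a pair of immunoglobulin domains, and most bind one or a few members of the related DIP family on neighbouring cells. In the fly visual system, lamina and medulla neurons carry different combinations of Dpr proteins, and their synaptic partners often carry matching DIP proteins. The family is studied for its part in layer choice, partner choice and survival of these neurons. dpr1 is the founding member, named for flies whose proboscis extension response to salt is altered, and the others were named as its paralogues.

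The values are the authors' own. Their deposited table gives a mean abundance for each genotype, an average normalized count over all libraries, and a log2 fold change of dFezf1 over WT with its standard error (SE) and adjusted p. The mean abundances carry no spread. Their unit is not given, but they behave as a length-scaled one: over 7863 tested genes exon length had a Spearman correlation of 0.942 with the normalized count per unit of abundance, across genes, which are not independent replicates. Levels of different genes can therefore be set side by side on this scale. The log2 fold changes are shrunken toward 0, so the gap between the group means is given beside each. Values per library were not used here, and whether single libraries of the groups overlap is unknown. A lower value in sorted bulk RNA can come from fewer cells with the transcript or from less of it per cell, which cannot be told apart.

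WT L3 neurons held 3 of these transcripts at a mean abundance above 10 per the authors' deposited table, and dFezf1 neurons held 1. dpr3 and dpr1 fell in dFezf1 and dpr7 was listed at nearly the same level in both genotypes. dpr2 and dpr4 had lower WT means, above those of 41.7% and 41.2% of tested genes, and dpr5 was not detected. By the authors' deposited table, 2 of the 5 tested genes were lower in dFezf1 at an adjusted p under 0.05 and none was higher. Over all 9387 tested genes of the authors' deposited table, 6.82% passed, with 2.49% lower and 4.33% higher. The median log2 fold change of the 5 tested genes was -1.11, which is the value of dpr2, a gene that did not pass the test. Over all tested genes of the authors' deposited table the median was 0.03.

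**Figure D1:**
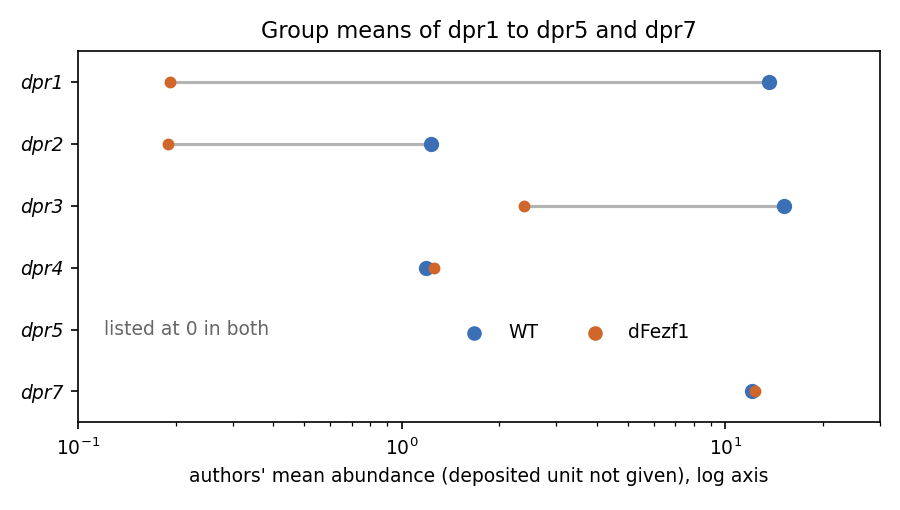
Authors' mean abundance of each gene in WT (blue) and dFezf1 (orange) on a log axis, with a grey line joining the genotypes. dpr1 goes from 13.6 to 0.192 and dpr3 from 15.2 to 2.39, while the points of dpr4 and of dpr7 nearly coincide and dpr5 is listed at 0.

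dpr3 had the highest WT level of the 6 genes. By the authors' deposited table, its mean abundance went from 15.2 in WT to 2.39 in dFezf1, 6.35 times higher in WT. It fell by 2.44 ± 0.37 (SE) on the shrunken log2 scale of the authors' deposited table, at adjusted p = 8.05e-09 and a 95% interval of -3.16 to -1.71. The log2 ratio of its group means, -2.67, lies inside that interval, so shrinkage changed this estimate little. The WT level of dpr3 was above that of 84.4% of tested genes, and its dFezf1 level above that of 52.5%. dpr3 transcript was thus reduced to a middling level in dFezf1 neurons and was still detected.

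dpr1 went from a similar WT level to near 0. Its mean abundance per the authors' deposited table was 13.6 in WT and 0.192 in dFezf1, 71.0 times higher in WT. The authors' deposited table gives dpr1 a shrunken log2 fold change of -1.90 ± 0.80 (SE) and adjusted p = 0.0183. The 95% interval, -3.46 to -0.34, excludes 0, while the log2 ratio of the group means was -6.15 and lies outside it. The test statistic of dpr1, -3.29, times its SE gives -2.62 rather than -1.90. Its adjusted p and its interval, which is not adjusted for the number of genes, thus rest on different quantities. dpr1 was above 83.2% of tested genes in WT and above 20.7% in dFezf1. At a threshold of 0.01 dpr1 was not called. The intervals of dpr1 and dpr3 overlap, and a difference between the falls of the 2 genes was not tested.

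dpr2 was above 41.7% of tested genes in WT and above 20.5% in dFezf1, under dpr3 in both genotypes. The authors' deposited table lists it at 1.23 in WT and 0.189 in dFezf1, a ratio of 6.52, close to the 6.35 of dpr3. Its shrunken log2 fold change per the authors' deposited table was -1.11 ± 0.79 (SE), at adjusted p = 0.533 and a 95% interval of -2.66 to 0.45. The interval holds both no change and the fall measured for dpr3. Average normalized counts per the authors' deposited table were 110.4 for dpr2 and 1433 for dpr3, so far fewer reads stand behind the ratio of dpr2.

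dpr7 was listed at a high level in both genotypes. Its mean abundance per the authors' deposited table was 12.1 in WT and 12.4 in dFezf1. The shrunken log2 fold change was 0.09 ± 0.38 (SE) per the authors' deposited table, at adjusted p = 0.964 and a 95% interval of -0.65 to 0.84. A fall of the size measured for dpr3 lies outside this interval. dpr7 was above 81.6% of tested genes in WT and 82.4% in dFezf1.

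dpr4 and dpr5 lie next to each other on chromosome 3R. dpr4 had a mean abundance of 1.19 in WT and 1.26 in dFezf1 per the authors' deposited table. Its shrunken log2 fold change per the authors' deposited table was 0.15 ± 0.71 (SE), at adjusted p = 0.970. The 95% interval of dpr4, -1.25 to 1.54, is wide and holds both falls and rises, at an average normalized count of 203 per the authors' deposited table. dpr5 is listed at 0 in both genotypes and has an average normalized count of 0 per the authors' deposited table. No fold change can be given for dpr5.

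The order of the levels differed between genotypes. From the highest, the order of mean abundance per the authors' deposited table was dpr3, dpr1, dpr7, dpr2, dpr4 and dpr5 in WT. In dFezf1 it was dpr7, dpr3, dpr4, dpr1, dpr2 and dpr5 per the authors' deposited table. Since the group means carry no spread, neighbours in these orders were not tested against each other, and dpr1, dpr3 and dpr7 in WT (12.1 to 15.2) and dpr1 and dpr2 in dFezf1 (0.192 and 0.189) lie close together. The summed abundance of the 6 genes was 43.4 in WT and 16.4 in dFezf1, computed from the authors' deposited table. dpr1, dpr3 and dpr7 together made 94.4% of the WT sum, with 31.5%, 35.0% and 27.9% each. In dFezf1 dpr7 alone made 75.5% of the sum, dpr3 14.6%, dpr4 7.65% and dpr1 1.17%. dpr7 therefore went from about the same share as dpr1 and dpr3 to most of the sum, while its own level did not pass the test.

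**Figure D2:**
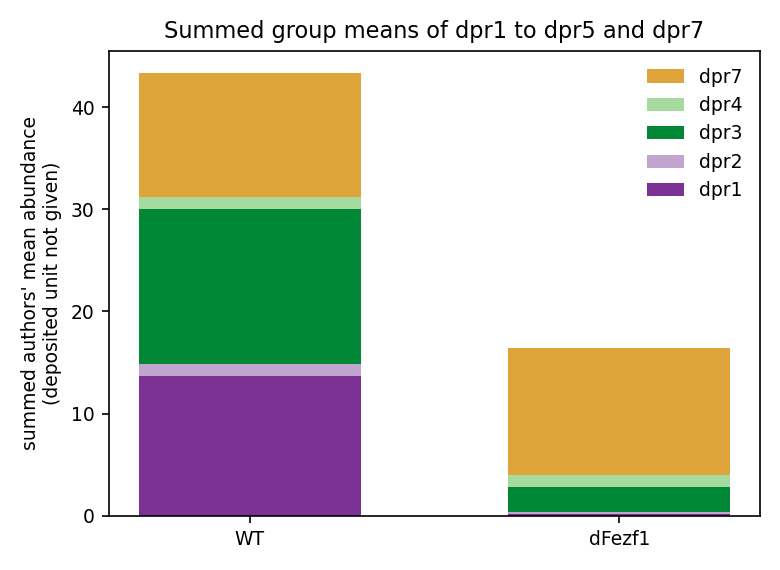
Authors' mean abundances of the 6 genes stacked for WT and dFezf1 on a linear axis from 0. The WT column, 43.4 high, is made mostly of dpr1, dpr3 and dpr7, and the dFezf1 column, 16.4 high, mostly of dpr7. dpr5 adds nothing to either.

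The SEs of the fold changes differed widely between the genes. They belong to shrunken fold changes and are no plain measure of precision, since they can be smaller at very low counts. The marker gene ase, at an average normalized count of 10.1, had an SE of 0.59, under that of dpr1. dpr3 and dpr7 had SEs of 0.37 and 0.38 at average normalized counts of 1433 and 1039 per the authors' deposited table. dpr1, at a count of 1241 between them, had an SE of 0.80. Among the 543 tested genes with an average normalized count of 1000 to 1500 per the authors' deposited table the median SE was 0.50, and dpr1 had the largest. It lay near the maximum over all tested genes, 0.81. Among the 606 tested genes with a count of 100 to 150 the median SE was 0.79, and dpr2, with an SE of 0.79, was typical of them. By the authors' deposited table, 5 tested genes had a WT mean of at least 10 that was at least 50 times a dFezf1 mean above 0, dpr1 among them. Of these, 4 were called, and the SEs of the 5 ran from 0.47 to 0.80 per the authors' deposited table. dpr1 had the second highest adjusted p of the 5. The source of the large SE of dpr1 was not tested.

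**Figure D3:**
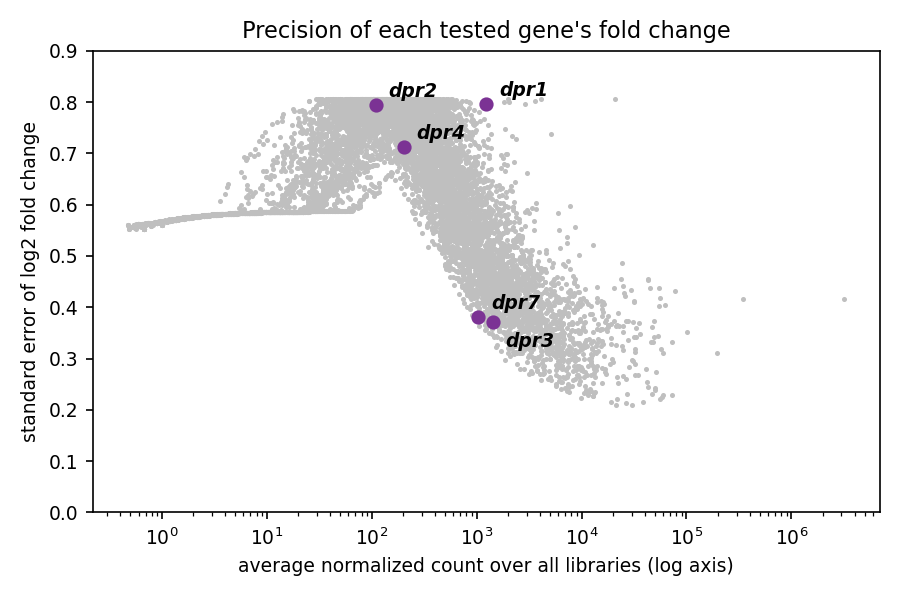
SE of the log2 fold change against average normalized count (log axis) for the 9387 tested genes (grey) and the 5 tested genes described here (purple). dpr3 and dpr7 lie at the lower edge of the cloud, dpr2 and dpr4 at lower counts than these, and dpr1 above the other genes with a count of 1000 to 1500.

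The 6 genes are spread over 4 chromosome arms, with positions that are the same in the deposited table and in the annotation of build BDGP6. dpr3 (FBgn0053516) lies on chromosome 2L from 2058790 to 2109878 and dpr2 (FBgn0261871) on 2L from 10917015 to 10964153, both on the minus strand. dpr1 (FBgn0040726) lies on 2R from 20698483 to 20750442 on the plus strand. dpr5 (FBgn0037908, plus strand) and dpr4 (FBgn0053512, minus strand) lie on 3R from 11499984 to 11505951 and from 11533483 to 11542949, with 27.5 kb and no gene of the deposited table between them. dpr7 (FBgn0053481) lies on chromosome 4 from 247124 to 253329 on the minus strand. dpr1, dpr2 and dpr3 are long genes with spans of 51960, 47139 and 51089 bases, of which 3598, 3039 and 3160 are exonic. dpr4, dpr5 and dpr7 span 9467, 5968 and 6206 bases. The 3 genes with the lower dFezf1 means are the 3 long ones, and dpr2 among them did not pass the test. Long genes among the other dpr genes went both ways. dpr11 and dpr12, with spans of 64162 and 56120 bases, were higher in dFezf1. dpr6 and dpr8, with spans of 164710 and 140126 bases, were lower. dpr21, with a span of 124513 bases, did not pass the test. A link between span and fold change was not tested.

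**Figure D4:**
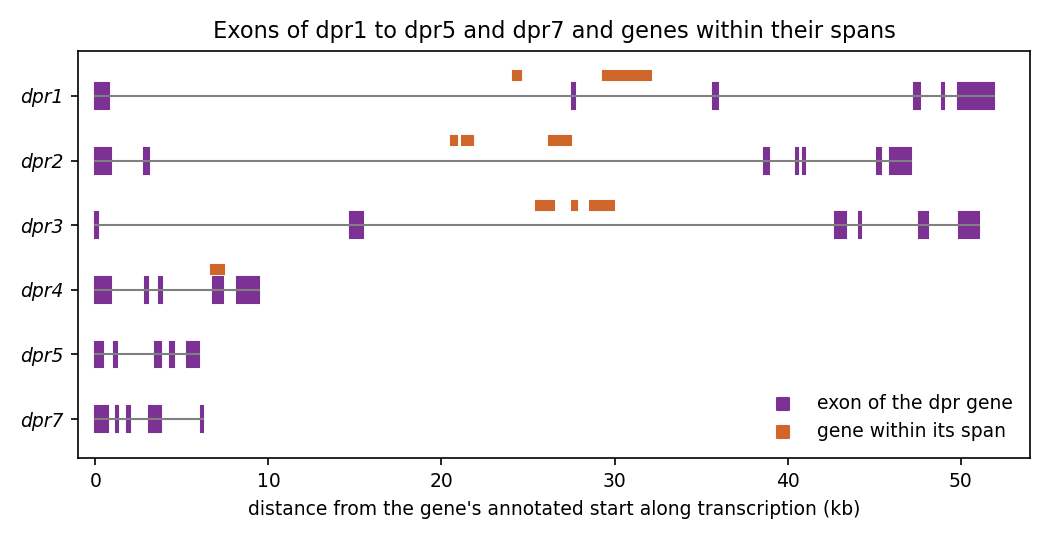
Annotated exons (purple) of the 6 genes, drawn to scale along the direction of transcription, with other annotated genes within their spans (orange, transposable elements left out). dpr1, dpr2 and dpr3 have long introns that hold other genes, and an antisense RNA overlaps an exon of dpr4.

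Other genes lie within these spans, and Smart-seq2 libraries do not mark strand, so reads of overlapping genes may be shared. CG13442 (2R, 20727829 to 20730610) lies inside an intron of dpr1 on the opposite strand and shares no exonic base with it. It was listed at 0.461 in WT and 0 in dFezf1 per the authors' deposited table. Its adjusted p per the authors' deposited table was 3.66e-06 at an average normalized count of 16.0, with a shrunken log2 fold change of -0.53 ± 0.59 (SE), whose 95% interval includes 0. CG12674 (2L, 2079919 to 2081286) lies likewise inside dpr3 on the opposite strand, with no shared exonic base. It went from 2.34 in WT to 0.221 in dFezf1 at adjusted p = 0.637 per the authors' deposited table. Both intronic genes had a lower dFezf1 mean, as their host genes did, and whether their reads come from unspliced host transcript was not tested. CG14072, inside dpr2, was listed at 0 in both genotypes per the authors' deposited table. The antisense RNA asRNA:CR45056 shares 469 exonic bases with dpr4 and has no row there, so the level of dpr4 may include its reads.

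The genes that flank these spans did not pass the test where they had one. Tmem214, the next gene beside dpr2, stood at 45.1 in WT and 39.4 in dFezf1 at adjusted p = 0.921 per the authors' deposited table. Or22c, an odorant receptor gene 822 bases from dpr3, was listed at 0.25 and 0 at adjusted p = 0.548 per the authors' deposited table. RhoGAP102A beside dpr7 had adjusted p = 0.477, CG1674 on its other side 0.775 and CG17230 beside dpr5 0.972 per the authors' deposited table. The remaining neighbours, CG13438 and CG34201 beside dpr1, CG14069 beside dpr2, CG4259 beside dpr3 and CG14708 beside dpr4, were listed at 0 in both genotypes per the authors' deposited table. dpr3 lies 88.4 kb from erm on the same arm. Of 16 genes of the deposited table between them 10 were tested, and none passed an adjusted p of 0.05, and 0 had an unadjusted p under 0.05, per the authors' deposited table, whose header has the column names of DESeq2. The other genes between dpr3 and erm had no adjusted p. dpr2 lies on the same arm too. Whether lying on the arm of the mutated gene has a part in the fall of dpr3 was not tested.

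The DIP receptors of this binding group were at or near 0 in L3 neurons. DIP-eta was listed at 0 in both genotypes per the authors' deposited table. DIP-theta was at 0 in WT and 0.0164 in dFezf1, and DIP-iota at 0 in WT and 0.308 in dFezf1, per the authors' deposited table. Their adjusted p values per the authors' deposited table were 0.720 and 0.421, at average normalized counts of 1.17 and 8.36. L3 neurons of either genotype thus held transcripts of the Dpr side of this group and next to none of the DIP side. Of the other DIP genes, DIP-beta rose from a WT value listed at 0 to 1.07, at adjusted p = 6.56e-07 per the authors' deposited table. DIP-alpha was at 1.35 in WT and 0.204 in dFezf1 at adjusted p = 0.535, and DIP-gamma at 0.391 and 1.65 at adjusted p = 0.664, per the authors' deposited table. DIP-delta was listed at 0 in WT and 0.0604 in dFezf1 at adjusted p = 0.392, and DIP-lambda at 0 and 0.00345 with no adjusted p, per the authors' deposited table. DIP-epsilon, DIP-zeta and DIP-kappa were listed at 0 in both genotypes per the authors' deposited table. In all, 1 of 6 tested DIP genes was higher and none lower, beside 4.33% higher and 2.49% lower over all tested genes.

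**Figure D5:**
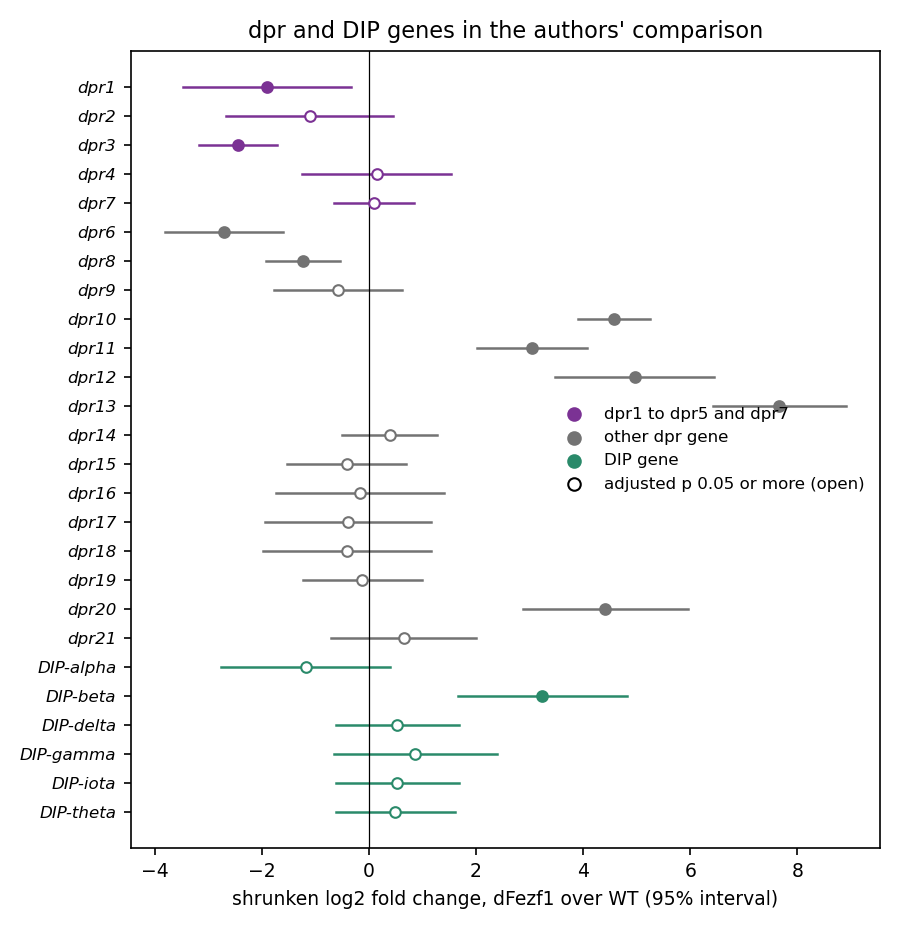
Shrunken log2 fold changes of dFezf1 over WT with 95% intervals for the tested dpr and DIP genes, filled where the adjusted p is under 0.05. Among the genes described here (purple) the filled points, dpr1 and dpr3, lie below 0, while the other dpr genes (grey) have filled points on both sides.

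The other 15 dpr genes, all tested, included 5 that were higher and 2 that were lower in dFezf1 per the authors' deposited table, with a median log2 fold change of -0.12. Called were 46.7% of them, against 6.82% of all tested genes (4.33% higher and 2.49% lower). The 5 higher ones, dpr10, dpr11, dpr12, dpr13 and dpr20, had WT means of 0 to 0.709 and dFezf1 means of 2.54 to 18.7 per the authors' deposited table. The 2 lower ones, dpr6 and dpr8, were the only dpr genes with a higher WT mean than dpr3, at 18.9 and 19.5 per the authors' deposited table. The 8 others had adjusted p values of 0.757 or more: dpr9, dpr14, dpr15, dpr16, dpr17, dpr18, dpr19 and dpr21. Of the 6 dpr genes with the highest WT means, 4 fell (dpr8, dpr6, dpr3 and dpr1), while dpr19 and dpr7 did not pass the test per the authors' deposited table. These 6 were picked by the WT mean, which also enters the fold change, so this count is no test. The summed abundance of these 15 genes was 70.8 in WT and 79.5 in dFezf1. dpr1 to dpr5 and dpr7 made 38.0% of the summed abundance of all 21 dpr genes in WT and 17.1% in dFezf1. By rank among the 21, dpr3 went from 3rd to 11th, dpr1 from 4th to 18th and dpr7 from 6th to 2nd. Whether this binding group differs from the other dpr genes was not tested.

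In the deposited categories, dpr1 to dpr5 are filed under cell surface and dpr7 has no category. Of 574 tested cell surface genes 100 (17.4%) were called per the authors' deposited table, of which 61 were higher and 39 lower. Over all tested genes 6.82% were called. The nearest genes to each dpr gene in the plane of the WT and dFezf1 group means, a measure of likeness over those 2 group means only, were looked up among the tested genes. For dpr1 they were Dscam3, CG9643 and CG31705. Dscam3, a Dscam family adhesion gene, went from 11.0 to 0.219 at adjusted p = 0.0833 per the authors' deposited table. CG9643 and CG31705 went from 10.6 to 0.158 and from 9.30 to 0.114, with adjusted p values of 0.000802 and 0.000164 per the authors' deposited table. For dpr3 they were Fie, CG15715 and nero, with adjusted p values of 0.387, 0.532 and 0.105 per the authors' deposited table. None of these 3 was called, although their group means were close to those of dpr3, and their SEs of 0.77 to 0.81 were larger than the 0.37 of dpr3. For dpr7 they were Paip2, CG15111 and CG9135, for dpr2 CG42514, CG7542 and Aatf, and for dpr4 CG8520, Ctu1 and Nmdmc, none of them called per the authors' deposited table.

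The sorted cells were checked against marker genes. The only L3 marker listed, erm, is the mutated gene itself, so its level is no independent check of L3 identity. It stood at 55.1 in WT and 49.2 in dFezf1 (adjusted p = 0.986) per the authors' deposited table. The 4 neuronal genes brp, elav, nSyb and Syt1 summed to 164.5 in WT and 268.0 in dFezf1 per the authors' deposited table, with a median log2 fold change of 0.87 and none called. Of these, elav had the smallest fold change, from 52.6 to 63.6, and brp the largest, from 49.5 to 102.5, per the authors' deposited table. The 6 glial markers summed to 1.43 in WT and 5.79 in dFezf1 per the authors' deposited table, mostly through Gs2 at 4.08 in dFezf1 (adjusted p 0.119), and the glial factor repo was at 0.162 and 0.356. None of the 6 was called. Of 6 tested markers of other lamina neurons 1 was called, svp, an L1 marker at 0.0408 in WT and 2.02 in dFezf1 at adjusted p = 0.0224 per the authors' deposited table. The list of 7 markers of other lamina neurons summed to 12.8 in WT and 14.2 in dFezf1 per the authors' deposited table. Most of this came from zfh1, at 12.4 and 11.5. In WT, bsh, pdm3, svp, ap, bab2 and bab1 ran from 0.00284 to 0.173, and in dFezf1 those other than svp were at 0.323 or less. Whether zfh1 is absent from L3 neurons was not tested, so this sum is no measure of other lamina neurons. Photoreceptor markers summed to 9.67 in WT and 16.6 in dFezf1 per the authors' deposited table, mostly through norpA at 9.55 and 15.9, with none of 4 tested called. The photoreceptor genes ninaE and trp were listed at 0 in both genotypes per the authors' deposited table. The markers gl, chp and ninaC were at 0.0983 or less in WT and 0.428 or less in dFezf1. Whether norpA is confined to photoreceptors in these samples was not tested, so the photoreceptor sum is no measure of photoreceptors. Whether photoreceptors express ninaE and trp at 24 h APF was not tested either. Blood, fat body and muscle markers summed to 0.187 in WT and 1.06 in dFezf1 per the authors' deposited table, with none called among 3 tested. Progenitor markers summed to 27.0 and 18.3 per the authors' deposited table, mostly through dac at 26.9 and 17.6, and none of 6 tested was called. The other progenitor markers, dpn, ase, wor, mira, eya and so, were at 0.108 or less in WT and 0.363 or less in dFezf1. Whether dac is confined to progenitors in these samples was not tested, so this sum is no measure of progenitors. The part of these marker levels in the falls of dpr1 and dpr3 was not tested.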

How the data were processed

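Total RNA of sorted L3 neurons was extracted with a column kit and made into cDNA libraries with Smart-seq2 chemistry and Nextera reagents, per the labels' protocols. The genotype label of each sample gave its group, with 3 samples in each. Per the submitters' processing notes, DESeq2, Salmon, STAR and FastQC were used with build BDGP6. No version or role of a tool was stated.

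The authors deposited, per the file headers, an average normalized count (a signal over all libraries), a log2 fold change with its SE, a test statistic (a score), a p-value and an adjusted p-value per gene. They also deposited a mean abundance signal per genotype, of unstated unit. A further 12 library columns carry codes that match no sample label and were not used, so depth and spread per library are not given. An edgeR fit was planned for the case that these columns matched samples, and was not run. The design text calls the samples biological replicates. The labels do not tie them to animals. Which libraries entered the authors' fit was not checked here, and their p-values set each difference against an estimate of the variation between those libraries. Whether those are the 3 samples of each genotype is not known.

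Genes were matched by identifier through the gene name table (13581 of 13727 matched) and the BDGP6 annotation. Start positions were identical for 99.2% of 13503 genes placed by both sources. Calls required an adjusted p below 0.05. The deposited adjusted p-values equal Benjamini-Hochberg values over 9387 genes within 0.001. Intervals are normal, 1.96 SE either way, and ratios or folds of the authors' means were computed from the deposited values. A pseudocount of 0.1 was used for the nearest genes, 3 per dpr gene. The adjustment was tested on simulated data. Python 3.11.15, pandas 2.3.3, numpy 2.4.6, SciPy 1.17.1 and matplotlib 3.10.9 were used.

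Named genes were the 6 genes, the other dpr and all DIP genes, erm, genes overlapping or flanking the 6, and the nearest genes. The 6 genes, the lists and the markers were chosen with earlier results of these data known, and the marker and immunoglobulin genes printed were picked with their values known. The alternatives were a stricter threshold, other sets of genes to adjust over, an interval rule, unshrunken ratios, other pseudocounts and matching by symbol alone.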

Additional observations from a re-analysis of the deposited data

How the results depend on the processing

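Calls were recounted under 6 alternatives. dpr1 and dpr3 were both called with adjustment over all 9755 genes with a p-value, over the 5861 that averaged 100 normalized counts or more, over the 7970 above 0 in both groups, and where the 95% interval had to exclude 0. The intervals are not adjusted for the number of genes, and 359 of the 640 called genes had one that excludes 0. At an adjusted p under 0.01 the count of called genes was 1 (dpr3). Matched by the deposited symbol alone, a setting chosen after seeing the data, it was also 1, since dpr1 drops out by construction. The adjusted p of dpr1 ran from 0.0183 to 0.0362 over the sets of genes adjusted over, and that of dpr3 from 5.41e-09 to 1.32e-08. From the unshrunken ratio of group means the log2 difference was -6.15 for dpr1 and -2.70 for dpr2, and with a pseudocount of 1 it was -3.62 and -0.91, against -5.56 and -2.20 with 0.1. The pseudocount lowers these differences by construction, since the dFezf1 means lie under 1. Every fold change of the 5 tested genes kept its direction under the alternatives run. Fits per library, edgeR, DESeq2 and leaving out each replicate were not run, since library columns were not matched to samples. No paired analysis was possible because library columns were not matched to samples, and the labels themselves number no replicates.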

Other observations

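A list of 48 other genes of immunoglobulin and leucine-rich-repeat surface proteins gave 11 calls among 45 tested per the authors' deposited table (5 of them higher in dFezf1 and 6 lower), with a median log2 fold change of 0.54. This share of 24.4% stands beside 17.4% of tested cell surface genes and 6.82% of all tested genes. A difference between these shares was not tested. The called genes outside the side and kekkon families were Fas3, Dscam4, beat-VII, tutl and klg. Per the authors' deposited table, Fas3 fell from 253 to 67.6 (adjusted p = 4.2e-15) and Dscam4 rose from 0.109 to 9.65 (adjusted p = 9.4e-15). beat-VII rose from a WT value listed at 0 to 0.121 (adjusted p = 0.0298), at an average normalized count of 30.2. Its shrunken log2 fold change was 1.14 ± 0.73 (SE), with a 95% interval of -0.28 to 2.56 that includes 0. tutl, which encodes the surface protein Turtle, rose by 1.38 ± 0.33 (SE) in log2 units. Its mean abundance went from 25.6 to 63.8, at adjusted p = 0.000704 per the authors' deposited table. klg, which encodes the homophilic adhesion protein Klingon, fell by 0.81 ± 0.21 (SE), from 202 to 107.1, at adjusted p = 0.00384 per the authors' deposited table. kek3, a kekkon gene, fell by 1.59 ± 0.33 (SE), from 21.1 to 6.36, at adjusted p = 3.88e-05 per the authors' deposited table. Called kekkon genes went both ways: kek1 fell from 32.5 to 3.74 (adjusted p = 2.62e-12) and kek2 rose from 7.97 to 22.7 (adjusted p = 0.00221). Of the side genes, side-III and side-VIII were called lower and side-VI higher. Lac, which encodes Lachesin, was at 65.1 in WT and 42.2 in dFezf1 and did not pass (adjusted p 0.678 per the authors' deposited table). The genes named here were picked with their values known.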
